A study of Mus musculus with 24 samples.

Results

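Elastic fibre genes encode the proteins that build and cross-link the stretchable fibres of connective tissue. The set described here was chosen by symbol and holds 10 genes, Eln, Fbn1, Fbn2, Fbln1, Fbln2, Fbln5, Lox, Loxl1, Mfap4 and Mfap5. Of these, 9 had a gene-level value, 1 transcript cluster each, among 19920 genes with a value under a single symbol. No gene-level row carried Fbn1 as its only symbol in the platform annotation used here, and rows with several symbols were not used. Fbn1 is therefore described by the median of its 69 exon-level probe sets. The 10 genes had 266 of the 212097 probe sets with a single symbol. RNA from mouse ES cell cultures and mouse hearts had been hybridized to Affymetrix gene arrays, 2 arrays in each of 6 groups and 12 in all, in a study of expression and splicing during heart development and cardiomyocyte formation. Cultures were sampled as undifferentiated embryonic stem (ES) cells at day 0, as embryonic bodies (EB) at day 7 and as cardiac bodies (CB) at day 14, and whole hearts were sampled in embryos at E17.5, at postnatal day 1 (P1) and in adults. EB and CB were differentiated in a DMEM-based medium with 10% serum, and neither a strain nor a genotype is named in the labels. An embryonic body is an aggregate of differentiating ES cells, and the labels call the later culture stage cardiac bodies without saying how many of its cells are cardiomyocytes. The labels also do not say whether the replicates came from separate cultures or animals, so the p-values measure the spread between these arrays, which may be technical.

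Elastic fibres are made outside the cell. Fibrillins form thread-like microfibrils, tropoelastin is deposited on them with the help of fibulins and other microfibril-associated proteins, and lysyl oxidases then cross-link the elastin into an insoluble rubber. In the heart these fibres lie in the great arteries, the coronary vessels, the valves and the layers beneath the endocardium and epicardium, and fibroblasts and smooth muscle cells are their main makers.

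All levels are deposited log2 signals, in which a difference of 1 is a doubling, and a level says nothing about another gene's level because each probe set binds with its own strength. Changes are differences of group means ± the standard error of the limma fit, with n = 2 arrays per group, and a gene counted as called when its p, adjusted over all genes by the Benjamini-Hochberg method, was under 0.05. The median gene lay between 5.61 and 5.76 on every array, and signals were not tested against background. Of the 9 members with a gene-level value, 4 and 5 lay below the array's own median in ES cells, 3 and 4 in EB, 4 and 3 in CB, none in E17.5 and P1 hearts, and only Fbn2 on both adult arrays. The number of arrays limits the precision.

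Fbn2 encodes a fibrillin found mainly in developing tissues. It was the member with a high signal in differentiating cultures and perinatal hearts and an adult heart signal that overlapped that of ES cells. Its signal was 5.39 and 5.34 in ES cells, 8.63 and 8.78 in EB, 8.36 and 8.02 in CB, 9.64 and 9.58 in E17.5 hearts, 9.71 and 9.35 in P1 hearts, and 5.47 and 5.30 in adult hearts. The E17.5 and P1 arrays overlapped at the top of the order, EB and CB followed without overlap, and the adult and ES arrays overlapped at the bottom. The adult and ES signals lay below the array median, and these 2 groups were not tested against each other. By the median of exon-level probe sets they did not overlap, at 5.55 and 5.44 in adult hearts and 5.21 and 5.26 in ES cells. Fbn2 rose by 3.34 ± 0.19 in EB over ES cells (10.1-fold, adjusted p = 3.07e-07) and stood 2.83 ± 0.19 above ES cells in CB (7.12-fold, adjusted p = 1.08e-06). In adult hearts it was 17.7-fold lower than in P1 hearts, a change of -4.15 ± 0.19 (adjusted p = 6.26e-08), and 18.7-fold lower than in E17.5 hearts (adjusted p = 2.65e-08). All 66 Fbn2 probe sets were lower in adult than in P1 hearts, by between 0.83 and 7.60. The change between P1 and E17.5 hearts was -0.07 with a 95% confidence interval of -0.48 to 0.33.

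Fbn1, the main fibrillin of adult microfibrils, shared the rise in EB but stayed above its ES cell signal in adult hearts. The median of its probe sets was 5.31 and 5.64 in ES cells, 7.87 and 7.72 in EB, 6.16 and 6.37 in CB, 9.61 and 9.79 in E17.5 hearts, 10.50 and 9.76 in P1 hearts, and 9.10 and 8.98 in adult hearts. The P1 and E17.5 arrays overlapped, and every other step down the order P1, E17.5, adult, EB, CB, ES separated both arrays of a group from both of the next. In a fit of exon-level medians over 20352 genes, Fbn1 rose by 2.33 ± 0.26 in EB over ES cells (adjusted p = 8.16e-05) and was 1.53 ± 0.26 lower in CB than in EB (adjusted p = 0.00299). That fit called 14.7% of genes in the comparison of EB with ES cells and 7.73% in that of CB with EB. In adult against P1 hearts 58 of the 69 Fbn1 probe sets were lower and 11 higher, with changes from -3.31 to 1.39. By the median of these probe sets, Fbn1 was 1.09 ± 0.26 lower in adult than in P1 hearts (adjusted p = 0.00872, with 25.8% of genes called). Its differences between CB and ES cells (0.79, adjusted p = 0.104), between P1 and E17.5 hearts (0.43, adjusted p = 0.484) and between adult and E17.5 hearts (-0.66, adjusted p = 0.0728) were not called, where 6.77%, 2.94% and 31.7% of genes were. The call between adult and P1 hearts was lost without P1 replicate 1 (change -0.72, adjusted p = 0.0645) and without adult replicate 2 (change -1.03, adjusted p = 0.0516), and the differences of 0.79 and -0.66 were called without P1 replicate 1 or P1 replicate 2 (adjusted p = 0.0397 and 0.0293).

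Mfap5 encodes a small glycoprotein that binds fibrillin microfibrils, and it was highest in adult hearts. Its signal was 5.47 and 5.21 in ES cells, 4.42 and 4.53 in EB, 4.27 and 4.88 in CB, 6.73 and 7.34 in E17.5 hearts, 7.48 and 7.84 in P1 hearts, and 9.61 and 9.84 in adult hearts. Only the EB and CB arrays overlapped between neighbours in this order of levels. Adult hearts exceeded P1 hearts by 2.06 ± 0.25 (4.17-fold, adjusted p = 7.14e-05) and E17.5 hearts by 2.69 ± 0.25 (6.44-fold, adjusted p = 5.57e-06), and all 10 probe sets were higher in adult than in P1 hearts. Mfap5 was also 0.87 ± 0.25 lower in EB than in ES cells (adjusted p = 0.0273). That call was lost without ES replicate 1, ES replicate 2, EB replicate 1 or EB replicate 2, at changes between -1.0 and -0.73 and adjusted p between 0.0697 and 0.182.

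Mfap4, whose protein binds both tropoelastin and fibrillin, had an EB signal that overlapped that of E17.5 hearts. It was 6.22 and 5.78 in ES cells, 7.78 and 8.24 in EB, 6.64 and 6.08 in CB, 8.06 and 8.34 in E17.5 hearts, 8.18 and 8.45 in P1 hearts, and 8.62 and 8.73 in adult hearts. The P1, E17.5 and EB arrays overlapped as neighbours, the CB and ES arrays overlapped at the bottom, and the adult arrays stood above all others. In EB the gene was 2.01 ± 0.24 above ES cells (4.02-fold, adjusted p = 8.16e-05), and in CB it was 1.65 ± 0.24 below EB (3.14-fold, adjusted p = 0.000708). All 6 probe sets moved up in EB over ES cells and down in CB against EB. Its change between adult and P1 hearts was 0.36 with an interval of -0.16 to 0.89.

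Eln encodes tropoelastin, the soluble precursor of elastin and the bulk of the finished fibre. It was lowest in the cultures, high at E17.5, higher at P1 and intermediate in adults. Its signal was 6.50 and 6.27 in ES cells, 5.90 and 6.10 in EB, 6.15 and 6.12 in CB, 9.70 and 10.58 in E17.5 hearts, 11.84 and 11.70 in P1 hearts, and 7.40 and 7.96 in adult hearts. No neighbours in the order P1, E17.5, adult, ES, CB, EB overlapped, although none of the differences among the cultures was called. P1 hearts exceeded E17.5 hearts by 1.63 ± 0.27 (3.10-fold, adjusted p = 0.00352). Adult hearts were 17.0-fold below P1 hearts, a change of -4.09 ± 0.27 (adjusted p = 7.99e-07), and 5.50-fold below E17.5 hearts, a change of -2.46 ± 0.27 (adjusted p = 1.78e-05). Each of the 39 Eln probe sets was higher at P1 than at E17.5 and lower in adult than in P1 hearts, by between 1.68 and 6.23 for the fall.

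**Figure D1:**
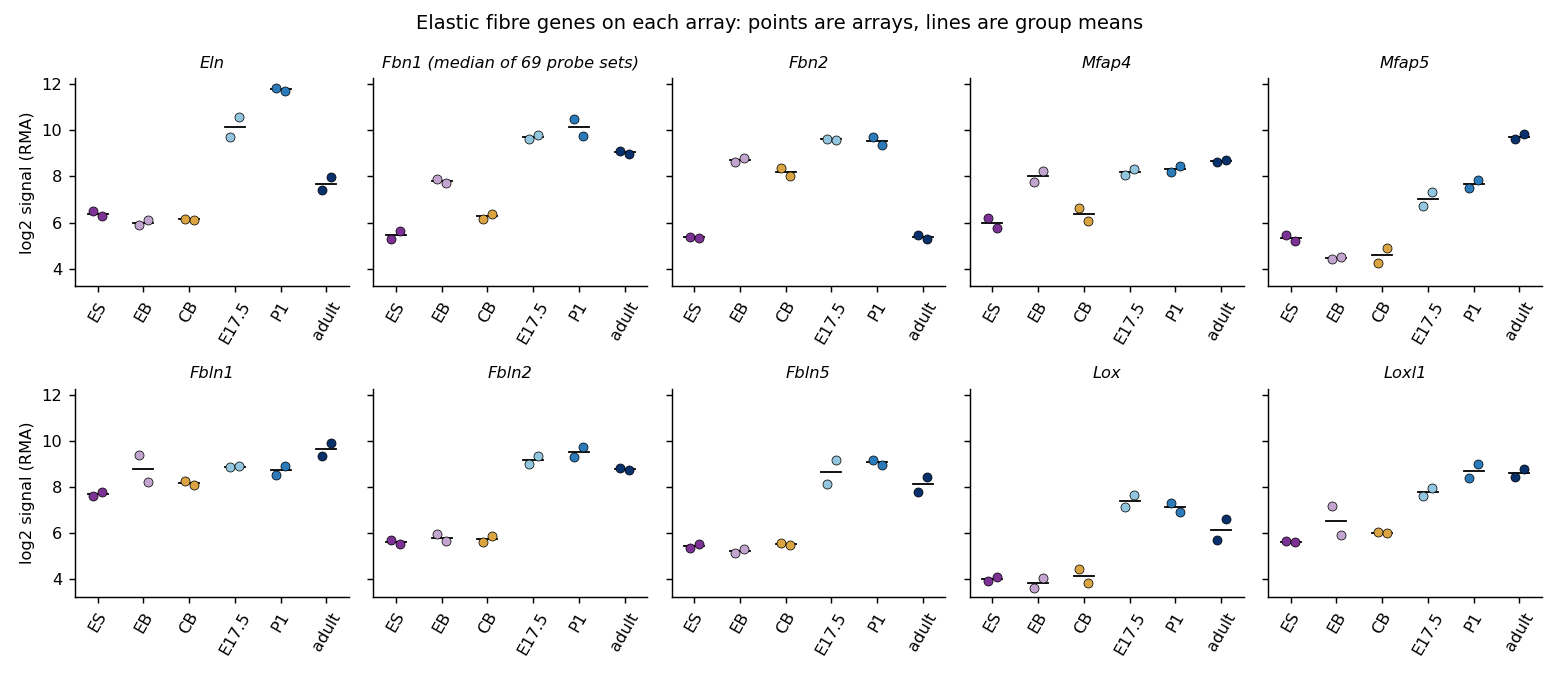
Log2 signal of each elastic fibre gene on each array (vertical axis), by group from ES cells to adult hearts (horizontal axis); points are arrays and lines are group means, and Fbn1 is the median of its exon-level probe sets. Eln peaks at P1, the Fbn2 arrays of adult hearts overlap those of ES cells, and Mfap5 is highest in adult hearts.

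The fibulins are calcium-binding glycoproteins that link elastin to microfibrils and to cells. Fbln5, which binds tropoelastin and is needed in mice for normal elastic fibres, and Fbln2, a fibulin of vessel walls and heart valves, had the most alike profiles of any pair of members. After each profile of 6 group means of exon-level medians was centred on its own mean, they differed by 0.11 log2 (root mean square), against up to 2.91 for Fbn2 and Mfap5 among the pairs. At gene level both were near the array median in all cultures and at least 2 log2 units above it in all hearts. The fibulin promoters in the RefSeq table (build GRCm38.p6, 250 bases before to 50 after a start site) are shown for Fbln2 at chr6:91212514-91212813 on the plus strand and for Fbln5 at chr12:101819070-101819369 on the minus strand, because these genes moved together; capitals mark GGGCGG and CAGAC on either strand, the core letters of the GC box bound by Sp1 and of a SMAD element.
Fbln2: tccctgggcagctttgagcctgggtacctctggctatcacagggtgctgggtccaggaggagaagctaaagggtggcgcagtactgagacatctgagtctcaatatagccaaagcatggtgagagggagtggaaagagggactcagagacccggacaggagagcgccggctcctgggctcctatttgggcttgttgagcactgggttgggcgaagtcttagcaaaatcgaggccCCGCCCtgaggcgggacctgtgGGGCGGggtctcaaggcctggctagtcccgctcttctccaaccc
Fbln5: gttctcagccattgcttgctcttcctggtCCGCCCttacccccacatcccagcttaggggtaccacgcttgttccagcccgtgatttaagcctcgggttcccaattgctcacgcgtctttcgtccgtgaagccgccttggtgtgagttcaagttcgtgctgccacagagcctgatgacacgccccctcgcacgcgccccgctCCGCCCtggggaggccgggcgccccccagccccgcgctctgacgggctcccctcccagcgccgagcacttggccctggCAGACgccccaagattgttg

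Each of these promoters held 2 matches to GGGCGG, a motif found in 35.7% of the 32851 RefSeq promoters of the same 300 bases. The Fbln5 promoter held 1 match to CAGAC and the Fbln2 promoter 0, while 49.6% of all promoters held one. The table holds a second Fbln5 start site, at chr12:101818435-101818734, whose window had 0 matches to GGGCGG and 2 to CAGAC. Neither window held the TATAAA box, present in 13.6% of all promoters, or the E-box CACGTG, present in 7.15%. The AP-1 element TGANTCA (7.81% of all promoters) and the CArG box (1.63%) were not in these windows either. The motifs could overlap, the table had entries for 4 of the 10 members, and a match is only a description of the letters.

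Fbln5 had a signal of 5.37 and 5.55 in ES cells, 5.15 and 5.33 in EB, 5.57 and 5.51 in CB, 8.13 and 9.19 in E17.5 hearts, 9.17 and 8.97 in P1 hearts, and 7.81 and 8.46 in adult hearts. Fbln2 had 5.70 and 5.54 in ES cells, 5.97 and 5.66 in EB, 5.64 and 5.90 in CB, 8.99 and 9.35 in E17.5 hearts, 9.29 and 9.73 in P1 hearts, and 8.81 and 8.75 in adult hearts. For both genes the P1 and E17.5 arrays overlapped and every culture array lay below every heart array. In adult against P1 hearts Fbln5 fell by 0.93 ± 0.30 (adjusted p = 0.033) and Fbln2 by 0.72 ± 0.21 (adjusted p = 0.02). The Fbln5 call was lost without P1 replicate 1, P1 replicate 2 or adult replicate 1 (adjusted p between 0.059 and 0.247, with the change reduced to -0.61 without adult replicate 1), and with the median of exon-level values. The Fbln2 call was lost without P1 replicate 2, adult replicate 1 or adult replicate 2, at changes of -0.75 to -0.50 and adjusted p between 0.0646 and 0.13.

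Fbln1, a fibulin of elastic fibres and basement membranes, was the member with the smallest range across the groups. Its signal was 7.61 and 7.81 in ES cells, 9.39 and 8.22 in EB, 8.26 and 8.10 in CB, 8.86 and 8.90 in E17.5 hearts, 8.54 and 8.92 in P1 hearts, and 9.35 and 9.92 in adult hearts. The adult arrays stood above those of the E17.5 hearts, the E17.5, EB and P1 arrays overlapped as neighbours, and the EB arrays lay more than 1 log2 unit apart. Fbln1 was 1.09 ± 0.32 higher in EB than in ES cells (adjusted p = 0.0273), and 0.90 ± 0.32 higher in adult than in P1 hearts (adjusted p = 0.0479). Without EB replicate 1 the rise in EB was 0.51 (adjusted p = 0.275), and without ES replicate 1 or ES replicate 2 it had an adjusted p of 0.155 or 0.0882. The adult call was lost in 9 of the 12 fits that left out 1 array, all but those without an EB array or adult replicate 1, at changes of 0.62 to 1.10 and adjusted p of 0.0532 to 0.288. With quantile normalization neither was called (adjusted p = 0.0544 for the rise in EB and 0.0535 for that in adult hearts).

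Lox and Loxl1 encode lysyl oxidases, the copper-dependent enzymes that cross-link elastin and collagen. Lox had 3.93 and 4.10 in ES cells, 3.65 and 4.06 in EB, 4.45 and 3.84 in CB, 7.14 and 7.66 in E17.5 hearts, 7.32 and 6.92 in P1 hearts, and 5.69 and 6.60 in adult hearts. Loxl1, which in mice is needed to keep up elastic fibres in adults, had 5.66 and 5.62 in ES cells, 7.17 and 5.91 in EB, 6.07 and 6.0 in CB, 7.62 and 7.98 in E17.5 hearts, 8.39 and 9.02 in P1 hearts, and 8.45 and 8.80 in adult hearts. Lox signals were lower on every culture array than on any heart array and were intermediate in adult hearts, whereas the Loxl1 arrays of adult and P1 hearts overlapped at the top. Lox was 1.25 ± 0.31 lower in adult than in E17.5 hearts (adjusted p = 0.0072) and 0.97 ± 0.31 lower than in P1 hearts (adjusted p = 0.0326). Without adult replicate 1 those changes were -0.80 (adjusted p = 0.0912) and -0.52 (adjusted p = 0.293). The call against E17.5 hearts was also lost without E17.5 replicate 2 (adjusted p = 0.0795) and the call against P1 hearts without P1 replicate 1 (adjusted p = 0.152). Loxl1 was 0.08 lower in adult than in P1 hearts, with an interval of -0.82 to 0.65 for the change. Its difference of 0.90 between EB and ES cells was not called (adjusted p = 0.0827), but without EB replicate 2 it was 1.53 (adjusted p = 0.00234) and without EB replicate 1 it was 0.27 (adjusted p = 0.674).

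The comparison of EB with ES cells asks what changes as ES cells begin to differentiate. Of the 9 members, 3 rose and 1 fell, against 20.6% of all genes called in either direction, 12% higher and 8.61% lower. The members that rose were Fbn2, Mfap4 and Fbln1, microfibril and fibulin genes, and Mfap5 fell, while Eln, Fbln2, Fbln5, Lox and Loxl1 were not called. The median change of the 9 was 0.19, beside -0.03 for all genes. Without ES replicate 1, ES replicate 2 or EB replicate 1 the count was 2. Cell type markers moved in the same comparison: 7 of 12 fibroblast markers rose and 0 fell (median change 1.29), 6 of 10 endothelial markers rose and 1 fell (1.54), 5 of 7 epithelial markers rose and 0 fell (2.64), and 10 of 10 pluripotency markers fell (-3.29). The EB arrays themselves differed in cell type markers, in both directions. The median of 12 fibroblast markers was 7.68 on EB replicate 1 and 6.24 on EB replicate 2. In the same order Col1a1 was 8.34 and 6.54, and the median of 4 red cell genes was 10.02 and 5.87. The median of 10 endothelial markers was lower on EB replicate 1, at 6.75 against 7.76. The part of these markers in the members' values was not tested. These are bulk samples, in which fewer cells of a type and less RNA per cell cannot be told apart.

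The comparison of CB with EB asks what changes as cultures go on toward cardiomyocytes. In CB against EB, 0 members rose and 1 fell, Mfap4, against 11.9% of all genes called, 5.45% higher and 6.43% lower, and the median change of the 9 was -0.04 beside -0.01 for all genes. That share of 1 in 9 is near the background. Fbn1 fell as well in the separate fit of exon-level medians. The count was 3 without EB replicate 2, when Fbln1 (change -1.21, adjusted p = 0.0129) and Loxl1 (change -1.14, adjusted p = 0.0237) were also called lower, whereas without EB replicate 1 their changes were -0.04 (adjusted p = 0.97) and 0.13 (adjusted p = 0.9). In CB against ES cells 1 member rose, Fbn2, and 0 fell, against 9.8% of all genes called, 6.19% higher and 3.61% lower, with a median change of 0.15 beside -0.05. Without CB replicate 2 the count was 2, with Mfap5 called lower by 1.07 (adjusted p = 0.0434), and without CB replicate 1 the Mfap5 change was -0.46 (adjusted p = 0.544). The median of 10 cardiomyocyte markers was 11.78 and 11.23 on the CB arrays, against 5.40 and 5.31 in EB and 5.40 and 5.38 in ES cells. The same CB arrays had medians of 10.14 and 10.68 for 10 pluripotency markers and of 5.46 and 5.74 for 12 fibroblast markers. In CB against EB 9 of the 10 pluripotency markers were higher, and 3 of 12 fibroblast, 7 of 10 endothelial and 6 of 7 epithelial markers were lower. In the other direction, 1 endothelial marker was called higher, and 0 fibroblast and 0 epithelial markers were. Of 10 smooth muscle markers 3 were higher and 1 was lower. The part of these markers in the members' changes was not tested.

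**Figure D2:**
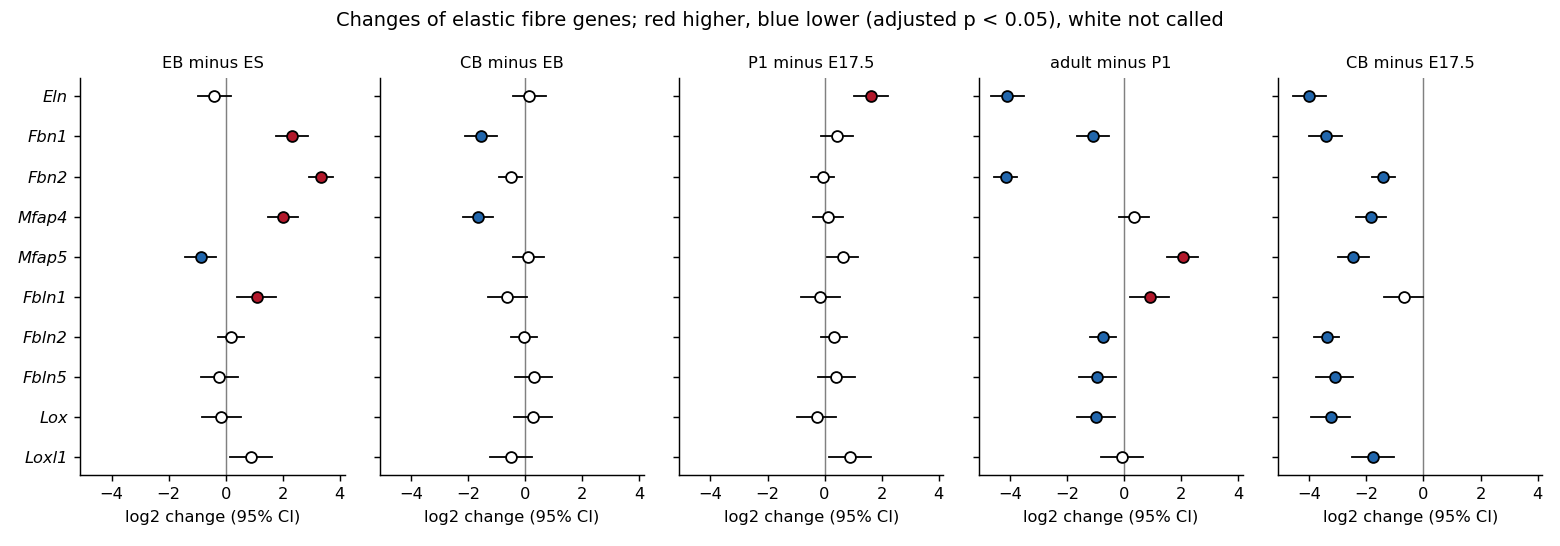
Log2 change of each elastic fibre gene (horizontal axis) with its 95% confidence interval from the limma fit, in 5 comparisons; red points were called higher, blue points lower and white points not called, n = 2 arrays per group, and Fbn1 comes from the fit of exon-level medians. In CB against E17.5 hearts all points but Fbln1 are blue, and in adult against P1 hearts Eln and Fbn2 lie furthest to the left and Mfap5 furthest to the right.

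The heart series asks what changes before and after birth. Between P1 and E17.5 hearts, 1 member rose, Eln, and 0 fell, against 5.13% of all genes called, 2.08% higher and 3.05% lower, with a median change of 0.34 for the 9 members and 0.01 for all genes. Without EB replicate 1 or EB replicate 2, which changes the pooled spread, the count was 2, with Loxl1 also called (change 0.91, adjusted p = 0.0408). In adult against P1 hearts, 2 members rose, Fbln1 and Mfap5, and 5 fell, Eln, Fbn2, Fbln2, Fbln5 and Lox, against 30.2% of all genes, 15.6% higher and 14.7% lower. The median change of the 9 was -0.72, beside 0.04 for all genes. The count was 4 without P1 replicate 1, P1 replicate 2 or adult replicate 1. In adult against E17.5 hearts 1 member rose, Mfap5, and 3 fell, Eln, Fbn2 and Lox, against 36.1% of all genes, 18.1% higher and 18.0% lower, so the number called was near the share over all genes. The median changes were -0.39 for the 9 members and 0.05 for all genes. In that comparison Fbln1 and Loxl1 were also called higher without EB replicate 1 or EB replicate 2 (adjusted p = 0.0169 and 0.0135), Fbln5 was called lower without E17.5 replicate 1 (change -1.06, adjusted p = 0.0151) but had a change of 0.01 without E17.5 replicate 2 (adjusted p = 0.987), and with medians of exon-level values Mfap4 and Fbln1 were called higher (adjusted p = 0.0286 and 0.0403). The comparisons share arrays of each stage and are not independent of each other. The adult arrays also carry sample record numbers apart from all others, which do not say whether these arrays were run separately. Adult stage and a possible separate run of these arrays cannot be told apart.

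Marker lists of other heart cells also moved between P1 and adult hearts. Of 12 fibroblast markers 4 rose and 4 fell, with list medians of 8.14 and 8.50 on the adult arrays against 9.05 and 8.92 on the P1 arrays. The median of the 12 changes was 0.27, of the opposite sign to the difference of the list medians. Within that list Dcn, a small matrix proteoglycan, was 1.91 ± 0.49 higher in adult hearts (adjusted p = 0.0103) and Col1a1, a chain of fibrillar collagen, 3.40 ± 0.40 lower (adjusted p = 6.03e-05). Of 10 smooth muscle markers 1 rose and 4 fell, with medians of 6.47 and 6.78 in adult against 7.64 and 7.85 in P1 hearts. Of 8 macrophage markers 7 rose and 0 fell, with medians of 7.70 and 8.02 in adult against 6.54 and 6.93 in P1 hearts. The part of these cell types in the members' changes was not tested.

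Cardiac bodies and E17.5 hearts both had high cardiomyocyte genes but differed widely in the elastic fibre genes. In CB against E17.5 hearts, 0 of the 9 members were higher and 8 were lower, against 23.7% of all genes called, 12.1% higher and 11.6% lower, and the median change of the 9 was -2.46 beside -0.02 for all genes. Eln was 16.1-fold lower (change -4.01 ± 0.27, adjusted p = 8.39e-07). Among the fibulins, Fbln2 was 10.6-fold lower (change -3.40 ± 0.21, adjusted p = 4.87e-07) and Fbln5 8.69-fold lower (change -3.12 ± 0.30, adjusted p = 1.59e-05). The Fbln1 arrays did not overlap between these groups, but the change of -0.70 ± 0.32 was not called (adjusted p = 0.144); without EB replicate 1 or EB replicate 2 its adjusted p was 0.0344. Lox, at -3.26 ± 0.31, was 9.57-fold lower (adjusted p = 1.56e-05), and Loxl1, at -1.76 ± 0.34, was 3.40-fold lower (adjusted p = 0.00224). Mfap5 differed by -2.46, Mfap4 by -1.84 and Fbn2 by -1.41, and the Fbn2 change had the smallest size among the 8. The median of the Fbn1 probe sets fell by 3.43 ± 0.26 in CB (adjusted p = 4.03e-06, with 19.0% of genes called), and 68 of its 69 probe sets were lower.

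Cell type markers also differed between CB and E17.5 hearts, in both directions. Of 12 fibroblast markers 10 were lower and 0 higher in CB, with a median change of -4.43, and Dcn was 4.55 and 4.63 in CB against 11.06 and 11.23 in E17.5 hearts. Of 10 endothelial markers 10 were lower, of 10 smooth muscle markers 6, of 8 epicardial and mesothelial markers 7 and of 8 macrophage markers 7, and none of these lists had a marker called higher. Of 7 epithelial markers 6 were higher and 0 lower in CB (median change 1.85), and of 7 endoderm and yolk sac markers 3 were higher and 1 lower (median change 0.74). Among single markers, the endothelial cadherin gene Cdh5 differed by -4.16 ± 0.28 and the smooth muscle myosin gene Myh11 by -0.72 ± 0.23, while Acta2, an actin gene of smooth muscle and immature heart muscle, was not called (change -0.58, adjusted p = 0.248). Wt1, a gene of the epicardium, differed by -0.91 ± 0.21 (adjusted p = 0.00611). Of 10 cardiomyocyte markers 7 were lower in CB, at a median change of -1.18, and Myh6, a cardiac myosin heavy chain, differed by 0.02 ± 0.21. Of 10 pluripotency markers 9 were higher, with Pou5f1 at 6.47 ± 0.20 above E17.5 hearts (adjusted p = 5.24e-09). How much of the members' difference goes with cell makeup was not tested.

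**Figure D3:**
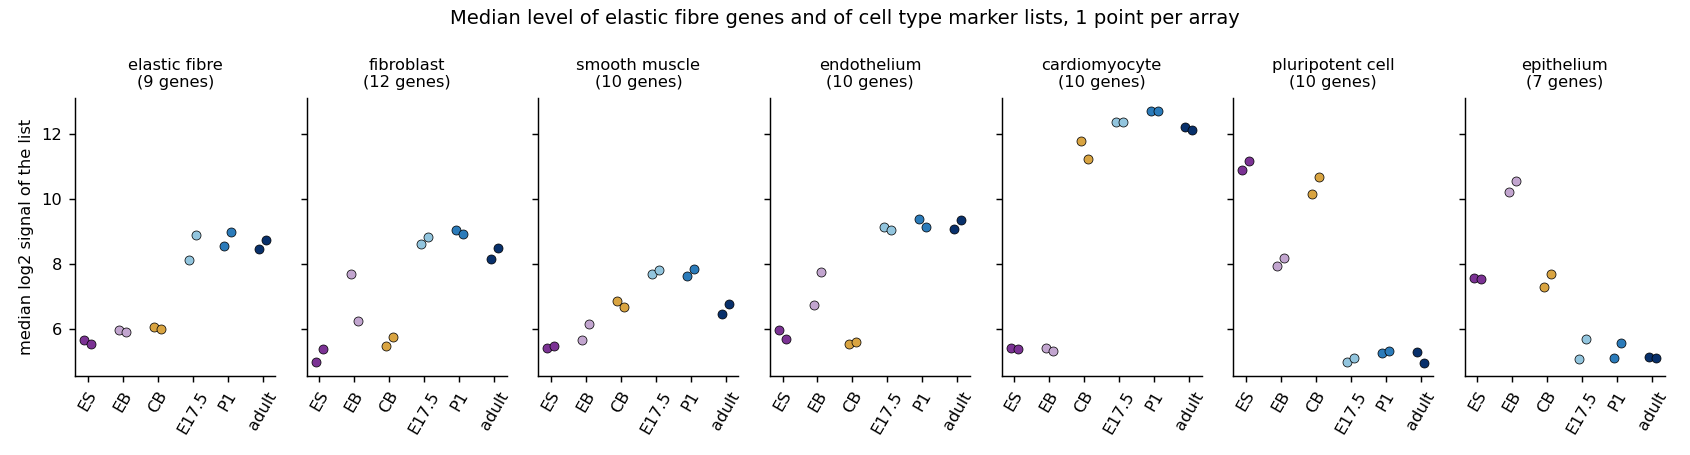
Median log2 signal on each array (vertical axis) of the 9 elastic fibre genes with gene-level values and of 6 cell type marker lists, by group from ES cells to adult hearts; each point is an array. The cardiomyocyte median is high in CB and in hearts, while the elastic fibre, fibroblast and endothelium medians are low in CB and high in hearts.

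Genes that take part in elastic fibre assembly beside the members, such as other fibulins, latent TGF-beta binding proteins, proteoglycans and integrins, were counted from a list of 42 genes, of which 37 were measured. In EB against ES cells 14 rose and 1 fell, against 20.6% of all genes called, with a median change of 0.51 beside -0.03 for all genes. Vcan, a large proteoglycan that binds fibulins and fibrillins, rose by 3.83 ± 0.36 and the growth factor gene Tgfb2 by 2.94 ± 0.28, while Ltbp4, a latent TGF-beta binding protein that interacts with fibulin in elastic fibre formation, fell by 2.37 ± 0.22. In CB against EB 5 of these genes rose and 8 fell, against 11.9% of all genes called. Vcan was 1.88 ± 0.36 lower in CB, Atp7a, the transporter that supplies copper to lysyl oxidases, was 1.60 ± 0.34 lower, and Ltbp4 was 1.52 ± 0.22 higher. The count of 13 was 5 without CB replicate 1, 8 without CB replicate 2 and 8 with medians of exon-level values. In CB against ES cells 10 rose, among them Furin, a protease that processes fibrillin precursors (2.17 ± 0.30), and 1 fell, against 9.8% of all genes called. That count of 11 was 6 without CB replicate 1 or ES replicate 2 and 7 without CB replicate 2 or ES replicate 1.

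In the heart comparisons the assembly genes moved in both directions after birth. The list's median change was -0.18 in adult against P1 hearts and 0.08 in adult against E17.5 hearts, beside 0.04 and 0.05 for all genes. Of all genes 30.2% and 36.1% were called in these adult comparisons. Between P1 and E17.5 hearts the rises were led by Ltbp4 at 1.45 ± 0.22 (adjusted p = 0.00238). The basement membrane proteoglycan gene Hspg2 followed at 1.34 ± 0.34 (adjusted p = 0.0439). Of the 37 genes 6 rose and 0 fell, against 5.13% of all genes called. That count was 1 without E17.5 replicate 1, E17.5 replicate 2 or P1 replicate 2, 12 without P1 replicate 1, and 3 with medians of exon-level values. In adult against P1 hearts 8 rose and 12 fell, a count of 20 that was 13 without adult replicate 1 or adult replicate 2. The adhesion protein gene Vtn was 3.55 ± 0.25 higher in adult hearts (adjusted p = 1.54e-06), and Fn1, which encodes fibronectin, was 2.38 ± 0.30 lower (adjusted p = 0.0001). In adult against E17.5 hearts 10 rose and 8 fell, with the proteoglycan gene Bgn at 2.21 ± 0.20 and Vcan at -2.31 ± 0.36. Dcn also belongs to the fibroblast marker list and Itga8 to the smooth muscle list.

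In CB against E17.5 hearts the assembly list was mostly lower, as the members were. Of the 37 measured genes 1 was higher and 22 were lower, against 23.7% of all genes called. The median change was -0.90 beside -0.02 for all genes. The proteoglycan genes Dcn and Bgn differed most, at -6.55 ± 0.49 and -5.01 ± 0.20. Mfap2, another glycoprotein gene of fibrillin microfibrils, differed by -3.30 ± 0.34 (adjusted p = 2.73e-05) and Efemp1, a further fibulin gene, by -2.6 ± 0.25 (adjusted p = 1.69e-05). The count of 23 was 13 without CB replicate 2, E17.5 replicate 1 or E17.5 replicate 2.

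Each gene's profile over the 6 groups was also set against those of 19911 genes at gene level, or 20342 in exon-level medians for Fbn1, by the root mean square difference of centred group means. Lox lay closest to Ctss, a lysosomal protease of macrophages, at 0.10 log2, then to the collagen gene Col14a1 at 0.17. For Fbln2 and Fbln5 the closest gene was Thbs2, which encodes a matrix glycoprotein, at 0.22 and 0.21. Eln lay 0.51 from Gja5, a gap junction gene, and 0.59 and 0.74 from the collagen genes Col1a1 and Col1a2. Fbn2 had no close match, the nearest being Itm2a at 0.61. Mfap5 was nearest to Meox2 at 0.27, Mfap4 to Mxra8 at 0.14, Loxl1 to S1pr3 at 0.17 and Fbn1 to Hey2 at 0.35. Fbln1, the member with the smallest range, lay 0.09 from Foxp2. These distances rest on 6 group means and are descriptions.

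At exon level, each probe set was set against its gene on the same array, and the change of that difference between groups is called the splicing index here. A probe set was called at an adjusted p under 0.05 and an index change of at least 1. Genes had to be at or above the median level in both groups, and probe sets in at least 1. Fbn1 did not enter, because the index used a gene-level row with a single symbol. In adult against P1 hearts 12 of 120 tested member probe sets were called, against 13.5% of all, and in adult against E17.5 hearts 14 of 121, against 16.5%, so the members' share was not above the background in either. Of these calls 2 and 4 were probe sets above the median in only 1 of the groups compared, so that the filter itself favoured a difference. Eln probe sets made up 8 of the 12 calls and 7 of the 14. Their indices subtract the same gene value, so those calls are not independent of each other. Leaving out P1 replicate 1 or P1 replicate 2 gave 5 or 6 calls against P1 hearts, and leaving out E17.5 replicate 1, E17.5 replicate 2 or adult replicate 1 gave 7, 4 or 9 against E17.5 hearts. Fbn2 was not tested in these comparisons because its adult signal lay below the median. Over all probe sets the share called was 0.0% in P1 against E17.5 hearts and 0.238% in CB against E17.5 hearts. Only the adult comparisons had shares as high as 13.5% and 16.5%. Adult stage and a possible separate run of the adult arrays cannot be told apart here.

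Probe set 10425946 of Fbln1 was above the median in only 1 group of each adult comparison and is given as a description, with no test. Its signal was 3.33 and 3.88 in adult hearts, against 6.59 and 6.92 in P1 hearts and 6.79 and 6.94 in E17.5 hearts. In the cultures it lay between 6.08 and 7.43, so the adult arrays stood apart from all 10 others. The gene-level mean of Fbln1 was instead highest in adult hearts. In the limma fit that rise was called against P1 hearts (adjusted p = 0.0479) but not against E17.5 hearts (adjusted p = 0.0841). The call against P1 hearts was lost in most fits that left out 1 array. Of the 20 Fbln1 probe sets 16 were higher in adult than in P1 hearts. The place of this probe set in the gene was not analysed here.

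In CB against E17.5 hearts 5 of 125 tested member probe sets were called, against 0.238% of all, and all 5 belonged to Eln, of which 38 were tested. Probe set 10534349 of Eln read 11.57 and 11.31 in CB against 11.42 and 12.11 in E17.5 hearts, where the gene as a whole was 4.01 lower in CB, and its index differed by 3.68 ± 0.23 (adjusted p = 0.00191). The same probe set read 10.74 and 11.12 in EB and 11.26 and 10.92 in ES cells, so its signal lay between 10.74 and 11.57 on all 6 culture arrays. Probe sets 10534361, 10534367 and 10534377 also had a positive index change, and these 4 were above the median in both groups. In ES cells 10534361, 10534367 and 10534377 averaged 9.2, 7.37 and 10.2, where the gene level of Eln averaged 6.38. All Eln indices subtract the same gene value, so the Eln calls are not independent of each other. The fifth, 10534373, averaged 4.83 in CB and 11.21 in E17.5 hearts and was tested only because it was high in E17.5 hearts, so its call supports nothing. The count of 5 was not steady: it was 1 to 3 when any 1 of the 10 ES, EB, CB, E17.5 or P1 arrays was left out, 3 with a replicate block and 0 with a filter at the 70th percentile.

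**Figure D4:**
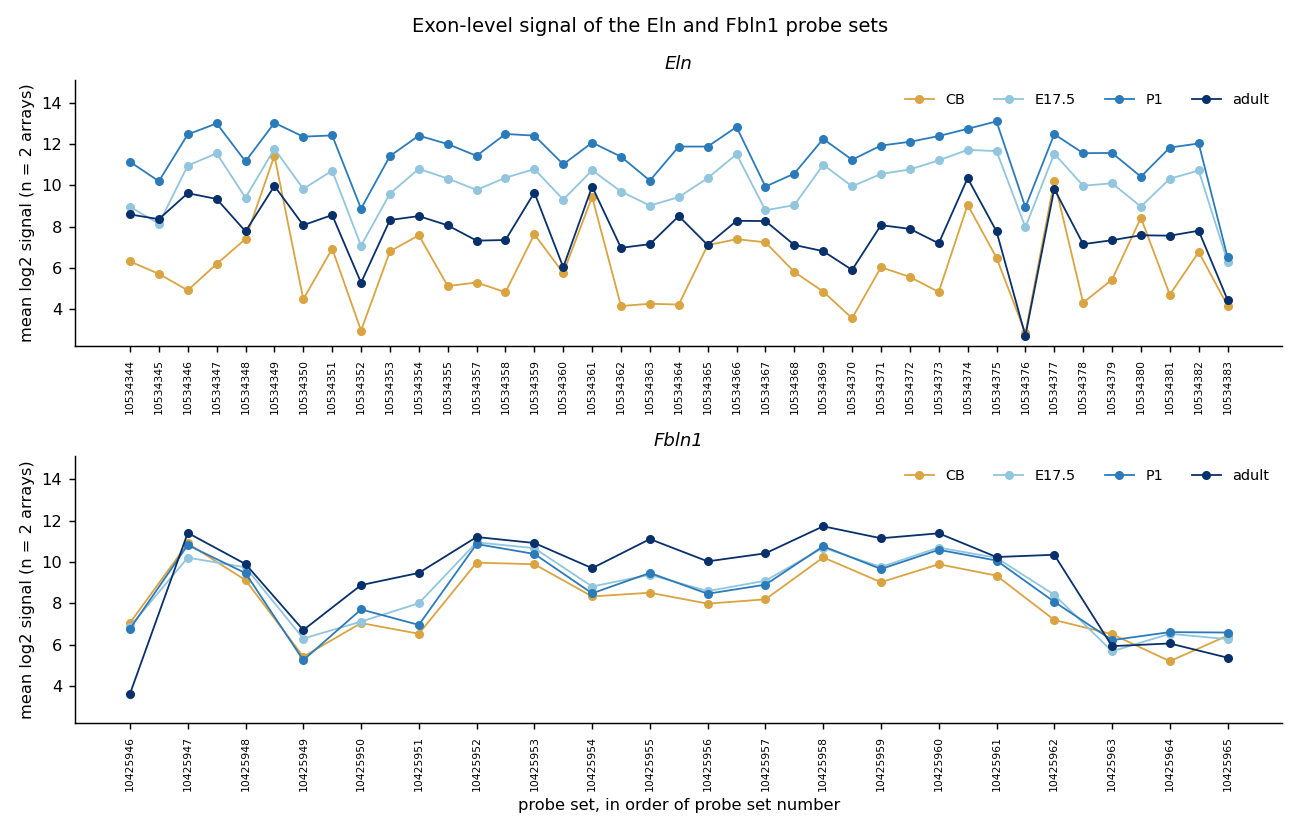
Mean log2 exon-level signal (vertical axis, n = 2 arrays per group) of the 39 Eln probe sets (top) and the 20 Fbln1 probe sets (bottom) in CB, E17.5, P1 and adult hearts, in order of probe set number. P1 lies above adult hearts at every Eln probe set, and the adult value of the leftmost Fbln1 probe set, 10425946, lies far below those of the other groups.

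No member probe set was called in the remaining comparisons. In EB against ES cells 0 of 21 tested were called and 4 had an unadjusted limma p under 0.05, with 0.0377% of all probe sets called. The smallest p was for probe set 10376781 of Mfap4, which hardly differed between the groups (means of 7.37 in EB and 7.03 in ES cells) although the whole gene stood 2.01 higher in EB. Its index change of -1.66 ± 0.25 missed the threshold (adjusted p = 0.0974). Over all 6 groups the mean of this probe set lay between 7.03 in ES cells and 7.64 in adult hearts. Its flat signal was therefore not particular to EB and ES cells. In CB against EB 0 of 84 were called and 8 had an unadjusted p under 0.05 (0.0032% of all called). In CB against ES cells the numbers were 0 of 33 and 3 (0.11%), and in P1 against E17.5 hearts 0 of 184 and 5, where 0 probe sets of any gene were called (0.0%).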

How the data were processed

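The deposited values are log2 signals, which the authors computed by RMA using Affymetrix Power Tools, per the submitters' processing notes; the versions and a genome build are not given in the sources used. Per the labels' protocols, RNA was extracted with TRIzol, depleted of ribosomal RNA, amplified as cDNA and labelled with biotin. Each of the 12 arrays was given at gene level (35556 transcript clusters) and at exon level (241576 probe sets).

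Symbols came from the platform annotation; only features with a single symbol entered, and for 1015 genes with several clusters the one with the highest mean was used. Group means of the 6 groups were estimated in limma 3.58.1 (functions lmFit and eBayes, R 4.3.3) from all 12 arrays (residual degrees of freedom 6, prior degrees of freedom 6.2). Adjusted p-values are Benjamini-Hochberg over 19920 genes within each of 7 comparisons. Fbn1 came from the same fit on medians of exon-level probe sets over 20352 genes. The splicing index was limited to genes of 4 or more probe sets and to probe sets reaching the median (percentile 50) in 1 group or more, and left out 218 probe sets identical to their gene. The scripts were tested on simulated data. Tables and figures used Python 3.11.15, pandas 2.3.3 and matplotlib 3.10.9.

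Named list genes are those with the largest called changes whose arrays do not overlap. The members, lists and marker genes were chosen with earlier results of these data known, so they give no independent support. Alternatives were a replicate block, a filter on level, quantile normalization, an intensity trend, the mean of all clusters, exon-level medians and leaving out each array, and for the splicing index other filters on level and the median of the gene's other probe sets as its level; for Fbn1 the block and leave-one-out were added after the data were seen.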

Additional observations from a re-analysis of the deposited data

How the results depend on the processing

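Of 1225 alternative values of single members, 1174 stayed on the same side of the threshold, 32 lost the call and 19 gained it; no called change turned its sign, and 22 uncalled ones did. Leaving out 1 array gave 2 to 4 members called in EB against ES cells, 1 to 3 in CB against EB, 1 to 2 in CB against ES cells, 1 to 2 in P1 against E17.5 hearts, 4 to 7 in adult against P1 hearts, 3 to 6 in adult against E17.5 hearts and 8 to 9 in CB against E17.5 hearts. In the same order the assembly list gave 11 to 16, 5 to 17, 6 to 13, 1 to 12, 13 to 20, 14 to 18 and 13 to 25, and member probe sets gave 5 to 15 in adult against P1 hearts, 4 to 16 in adult against E17.5 hearts, 1 to 4 in CB against E17.5 hearts and 0 in the others. With no filter on level 197 member probe sets were tested in each comparison. Of these, 12 were called in EB and 10 in CB, both against ES cells. In adult hearts 34 were called against P1 and 36 against E17.5 hearts, and in CB 9 against E17.5 hearts. With a filter at the 70th percentile 9 of 89 were called in adult against E17.5 hearts and 0 of 76 in CB against E17.5 hearts. The share over all probe sets was not computed for these settings, so these counts cannot be set against a background. With medians of exon-level values the assembly list gave 8 in CB against EB and 3 in P1 against E17.5 hearts. The replicate block gave 3 member probe sets in CB against E17.5 hearts and an adjusted p of 0.062 for Fbln1 in adult against P1 hearts. In the main fit the replicate numbers were not taken to pair the samples. Over 15 pairs of groups the deviations of same-numbered arrays correlated between -0.18 and 0.29 across genes, over 0.1 in 2 pairs and under -0.1 in 4. With 2 arrays per group these correlations cannot exclude pairing between some groups. The causes of these shifts were not tested. With 2 arrays per group a lone remaining array was assumed to vary like the other groups, and dim probe sets, whose signal was not set against background, limit the exon-level counts.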

Other observations

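Genes that break down elastin or receive its fragments were measured for 20 of 21 list entries. In EB against ES cells 8 rose and 3 fell, and the gelatinase gene Mmp2 rose by 3.19 ± 0.25 (adjusted p = 2.95e-06) together with Timp2, an inhibitor of such enzymes (2.62 ± 0.27, adjusted p = 2.19e-05). In CB against EB 1 rose and 2 fell, with Mmp2 at -2.15 ± 0.25 and the membrane-bound protease gene Mmp14 at -1.15 ± 0.18. In CB against ES cells 7 rose and 1 fell, with the inhibitor genes Timp2 and Timp3 at 2.70 ± 0.27 and 2.54 ± 0.40. In P1 against E17.5 hearts 1 rose, Timp4, and 0 fell. Of all genes 20.6%, 11.9%, 9.8% and 5.13% were called in these comparisons, in the order given. The list's counts in CB against EB and in P1 against E17.5 hearts were near those shares.

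Timp4, an inhibitor gene with high expression in adult heart, had the largest change of this list in adult hearts. It averaged 4.40 in E17.5, 6.28 in P1 and 10.12 in adult hearts, a difference of 3.85 ± 0.21 between adult and P1 hearts (adjusted p = 2.13e-07). Over the list 3 genes rose and 2 fell in adult against P1 hearts, and 5 rose and 3 fell in adult against E17.5 hearts. Of all genes 30.2% and 36.1% were called in these comparisons, so the list's counts were near the background. The list's median changes were 0.19 and 0.25, beside 0.04 and 0.05 for all genes. Mmp14 averaged 6.78 in adult and 9.93 in P1 hearts, a fall of 3.14 ± 0.18 (adjusted p = 2.72e-07). In CB against E17.5 hearts 1 was higher and 7 were lower, against 23.7% of all genes called. Among the lower genes were the cysteine protease gene Ctss at -2.98 ± 0.21 and Mmp14 at -2.41 ± 0.18.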
